A study of Mus musculus with 22 samples.

Results

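The walls of spinal cord vessels are represented here by 35 genes: 18 of endothelial cells, 7 of pericytes and 8 of the contractile apparatus of smooth muscle, with Pcdh12 (endothelial) and Carmn (smooth muscle) as 2 further genes of very low count that are described apart. The genes were chosen by name as markers of these cells, with earlier results of these data known. Pcdh12 and Carmn stand apart also because an earlier report named them for small p-values in E196K/+ against wild type mice. All 35 were found among the 38924 gene IDs of the deposited tables. PolyA-selected RNA of whole spinal cord was sequenced from mice aged 7 months on a mixed B6N and B6J background. The groups were E196K/E196K mice (HOM, 10 libraries), E196K/+ mice (HET, 6 libraries) and wild type mice (WT, 6 libraries). E196K is a change in Yars, which encodes the tyrosyl-tRNA synthetase, and the labels name no cell-specific driver. The transcript level of a gene with a changed codon does not check the genotype labels. Whether every library is a different animal is not stated in the labels, so the tests measure spread among libraries, which may be technical.

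The vessel wall of the central nervous system is built from endothelial cells that line the lumen, pericytes that cover capillaries, and smooth muscle cells that wrap arterioles. Endothelial cells of the cord form a barrier: claudin and cadherin junctions seal the gaps between them, carriers bring in glucose and other nutrients, and pumps return many foreign compounds to the blood. Pericytes are held to the capillary by PDGF signalling and carry a potassium channel that opens when cellular energy falls, while smooth muscle cells narrow or widen arterioles through actin and myosin. In RNA of whole cord, fewer cells of a type and less RNA per cell cannot be told apart.

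A pair of promoters is shown, 1 contractile and 1 endothelial gene that were high in 1 HOM library (HOM 3), each with a motif known for its lineage. The window runs from 250 bases before to 50 bases after the RefSeq start site on GRCm38.p6, and 23 of the 35 genes had such a window, with 26 start sites among them. The Myl9 window, chr2:156775214-156775513 on the plus strand, lies at the gene of the regulatory myosin light chain. Its capitals mark a CArG box, the site of serum response factor, searched as CC, then 6 bases that are each A or T, then GG, on both strands. This match lies 161 bases before the start site.
Myl9: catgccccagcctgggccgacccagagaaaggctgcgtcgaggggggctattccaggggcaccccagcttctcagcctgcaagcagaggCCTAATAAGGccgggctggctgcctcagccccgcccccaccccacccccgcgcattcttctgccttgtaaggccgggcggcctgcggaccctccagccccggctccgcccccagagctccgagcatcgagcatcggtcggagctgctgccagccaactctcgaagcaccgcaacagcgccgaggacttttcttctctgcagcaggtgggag
The Tie1 window, chr4:118489800-118490099 on the minus strand, belongs to the partner receptor of TIE2. Its capitals mark 2 copies of CTTCCT, which is AGGAAG on the other strand, a core often bound by ETS factors.
Tie1: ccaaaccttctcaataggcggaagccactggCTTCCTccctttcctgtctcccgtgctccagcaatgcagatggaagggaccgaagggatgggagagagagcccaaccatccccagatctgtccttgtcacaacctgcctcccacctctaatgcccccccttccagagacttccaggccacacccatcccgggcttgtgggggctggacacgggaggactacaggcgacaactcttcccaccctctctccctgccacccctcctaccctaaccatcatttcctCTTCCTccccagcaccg
A CArG box was found for 1 of 6 contractile genes with a window (Myl9), 0 of 13 endothelial genes and 0 of 4 pericyte genes, and in 1.63% of 32851 windows of the same length over all genes. AGGAAG, on either strand, was found for 8 of 13 endothelial genes, 0 of 4 pericyte genes and 2 of 6 contractile genes. Counted by window rather than by gene, it was in 9 of 16 endothelial windows (56.25%) and in 35.4% of all windows. These matches describe the letters in the windows only.

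The libraries held between 24.45 M and 42.81 M rounded counts, and a level in CPM is a count divided by the TMM-scaled total of its library, per 1 M. The third HOM library in order of deposition, called HOM 3 here, stood apart in markers of tissue next to the cord. Of 16 Schwann cell markers, which are genes of peripheral myelin, 12 were higher in HOM 3 than in each of the other 21 libraries. The same held for 14 of 18 fibroblast and meningeal markers, 12 of 12 blood markers and 15 of 17 skeletal muscle markers. It held for 17.1% of all tested genes. The summed Schwann list was 4372 CPM in HOM 3, against 802 to 1005 CPM in the other 9 HOM libraries, 860 to 912 CPM in HET libraries and 806 to 983 CPM in WT libraries. The summed fibroblast list was 1062 CPM in HOM 3, against 438 to 517 CPM in the other HOM libraries, 423 to 514 CPM in HET libraries and 420 to 566 CPM in WT libraries. The summed blood list was 2406 CPM in HOM 3, against 259 to 1042 CPM in the other HOM libraries, 289 to 563 CPM in HET libraries and 248 to 475 CPM in WT libraries. The summed skeletal muscle list was 85.2 CPM in HOM 3, against 69.1 to 76.7 CPM in the other HOM libraries, 67.2 to 79.5 CPM in HET libraries and 69.7 to 77.1 CPM in WT libraries. Most of that muscle sum was Pvalb, which with Myh7 was the most abundant of its list and went the other way. Pvalb was at 50.5 CPM in HOM 3 and between 55.65 and 66.1 CPM in the other 21 libraries. Myh7 was at 3.92 CPM in HOM 3 and between 5.64 and 8.39 CPM in the others. The summed motor neuron list was 955 CPM in HOM 3, against 1150 to 1430 CPM in the other HOM libraries. It was 1269 to 1379 CPM in HET libraries and 1125 to 1442 CPM in WT libraries. Its genes differed. Chat, the acetylcholine synthesis enzyme of motor neurons, was at 13.3 CPM in HOM 3 and between 19.4 and 29.3 CPM elsewhere. Ret, at 126 CPM in HOM 3, lay within the 125.2 to 157.3 CPM of the others. Isl1 was at 1.92 CPM in HOM 3, above its WT mean of 1.60 CPM. Results are therefore given with and without HOM 3.

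The 4 most abundant of the 35 transcripts were endothelial. Over all 22 libraries and on the length-scaled TPM of the deposited files, Bsg led at 601 ± 38.4 TPM (SD, n = 22). Bsg encodes basigin, a partner of lactate carriers that many cell types also make. Slc2a1, the glucose transporter GLUT1, followed at 117 ± 13.6 TPM, Pltp, a phospholipid transfer protein, at 94.8 ± 11.1 TPM and Ly6c1, a surface protein, at 94.8 ± 9.14 TPM. Pltp and Ly6c1 lay within a spread of each other, and Slc2a1 lay above both by more than its SD. The receptors were lower: Flt1 at 26.3 ± 2.28 TPM, Tek at 6.26 ± 0.898 TPM, Tie1 at 5.89 ± 1.07 TPM and Kdr at 4.97 ± 0.780 TPM.

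Among pericyte genes Rgs5, a brake on G protein signalling, was highest at 61.5 ± 9.16 TPM, next to Vtn, the secreted adhesive protein vitronectin, at 48.0 ± 11.2 TPM. The other 5 pericyte genes ran from 3.86 TPM (Kcnj8) to 8.08 TPM (Higd1b). Contractile genes were the lowest class: Myl9 led at 20.1 ± 6.85 TPM, Tpm2 (beta tropomyosin) followed at 9.85 ± 1.41 TPM, and Cnn1 (calponin) closed the class at 0.244 ± 0.125 TPM. Carmn reached 0.498 ± 0.253 TPM and Pcdh12 0.0982 ± 0.0562 TPM. The defining markers of the 3 cell types were thus present in every library, and each of the 35 genes passed the filter on low counts.

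Homozygous cords were compared with wild type cords to ask whether the 2 E196K alleles alter vessel transcripts. The 3 classes overlapped between the genotypes, and the differences of the contractile class rested mostly on HOM 3. None of the 35 genes was called in HOM against WT at an adjusted p below 0.05 (edgeR's quasi-likelihood test with Benjamini-Hochberg adjustment), where 16 of 16974 genes (0.0943%) were called. No call appeared among them with DESeq2 or limma either. At an unadjusted p below 0.05 there were 3 of 35 (8.57%), Myh11, Mustn1 and Esam, against 5.91% of all genes. There were 4 with DESeq2, and 2 without HOM 3 against 6.48% of all genes. No member's HOM and WT libraries separated, while 0.124% of all genes did. In this comparison the smallest adjusted p of any member was 0.815, and 0.496 over all settings tried.

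The 18 endothelial genes had a median log2 fold change of 0.06 in HOM against WT, with 17 of 18 higher, where all tested genes had a median of 0.01 with 53.8% higher. Without HOM 3 the median was 0.02, with 12 of 18 higher. The 95% intervals of the 18 fold changes lay together between 0.845 and 1.34 fold. In the same comparison the 7 pericyte genes had a median of 0.11 with 7 of 7 higher, and 0.04 with 7 of 7 higher without HOM 3. Their intervals lay between 0.892 and 1.36 fold. The 8 contractile genes had a median of 0.29 with 8 of 8 higher, and 0.07 with 8 of 8 higher without HOM 3. Their intervals were wider, between 0.870 and 2.38 fold.

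**Figure D1:**
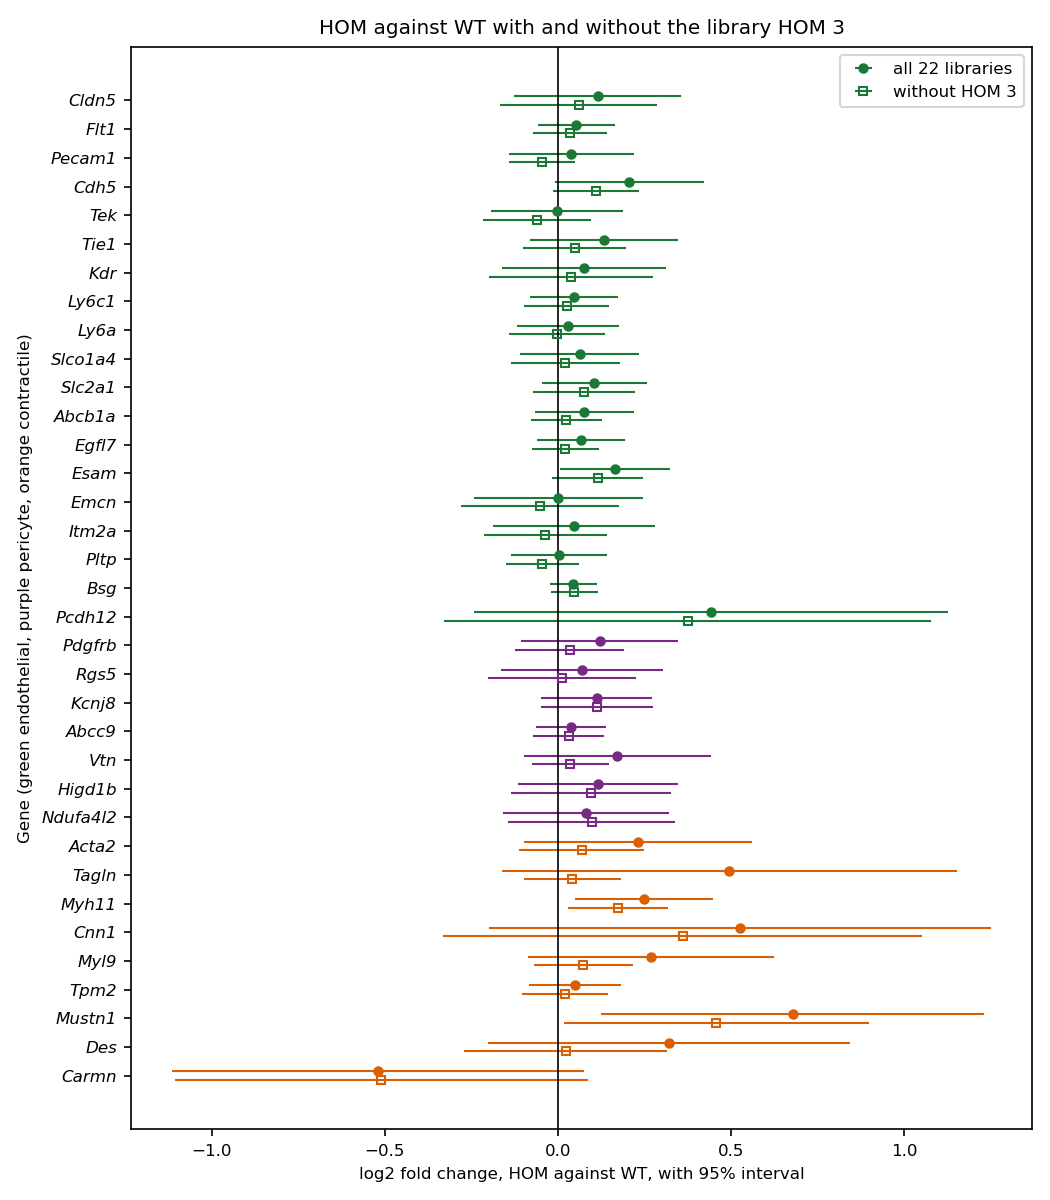
Log2 fold change in HOM against WT (horizontal axis) with its 95% interval for each of the 35 genes, from all 22 libraries (filled circles) and without HOM 3 (open squares). Tagln, at 0.49 with and 0.04 without HOM 3, moves most among the well-counted genes, and no gene passed the adjusted threshold.

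Junction genes differed little between genotypes. Cldn5, the claudin that seals barrier endothelium, ran from 23.6 to 37.9 CPM in HOM (median 27.0), from 21.1 to 32.2 CPM in HET (median 29.1) and from 20.1 to 30.7 CPM in WT (median 26.8). The 3 ranges overlapped over most of their width, and HOM 3 held the highest value. For Cldn5 the HOM to WT contrast was a log2 fold change of 0.11 (SE 0.117, adjusted p = 0.851, edgeR). Cdh5, the cadherin of endothelial adherens junctions, averaged 17.6 ± 3.81 CPM in HOM (SD, n = 10), 16.2 ± 1.19 CPM in HET (n = 6) and 15.2 ± 1.21 CPM in WT (n = 6). Its log2 fold change in HOM against WT was 0.21 (SE 0.103, adjusted p = 0.815, edgeR), and 0.11 (SE 0.0597, adjusted p = 0.789) without HOM 3, so that HOM 3 moved it by about its standard error. Esam, another adhesion molecule, averaged 14.6 ± 2.05 CPM in HOM, 14.0 ± 1.22 CPM in HET and 13.0 ± 0.925 CPM in WT. Its log2 fold change in HOM against WT was 0.16 (SE 0.0770, adjusted p = 0.815, edgeR) and 0.11 (SE 0.0636) without HOM 3. Pecam1, which joins neighbouring cells, averaged 22.6 ± 4.39 CPM in HOM and 22 ± 0.457 CPM in WT, and its log2 fold change of 0.04 became -0.05 without HOM 3.

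The receptors gave intervals centred near no change. Flt1, the VEGF receptor that binds its ligand tightly and limits its signal, ran from 80.3 to 109 CPM in HOM (median 99.8), from 93.8 to 103 CPM in HET (median 99.6) and from 82.7 to 101 CPM in WT (median 96.1). Its fold change in HOM against WT had a 95% interval of 0.961 to 1.12. Kdr, the main signalling receptor for VEGF, averaged 16.6 ± 2.42 CPM in HOM, 16.4 ± 1.47 CPM in HET and 15.8 ± 3.49 CPM in WT, with an interval of 0.894 to 1.24 fold in HOM against WT. Tek, the angiopoietin receptor TIE2, averaged 15.3 ± 2.37 CPM in HOM, 14.8 ± 1.62 CPM in HET and 15.3 ± 1.83 CPM in WT. Its interval in HOM against WT was 0.875 to 1.14 fold. Tie1 averaged 13.3 ± 2.73 CPM in HOM, 12.6 ± 0.866 CPM in HET and 12.1 ± 1.39 CPM in WT, and its log2 fold change in HOM against WT was 0.13 with HOM 3 and 0.05 without it.

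The transport genes of the barrier overlapped between the genotypes as well. Slc2a1 ran from 124 to 191 CPM in HOM (median 162), from 134 to 170 CPM in HET (median 156) and from 135 to 165 CPM in WT (median 151). Its fold change in HOM against WT lay between 0.968 and 1.2. Abcb1a, the efflux pump P-glycoprotein, averaged 50.3 ± 6.94 CPM in HOM, 44.3 ± 1.40 CPM in HET and 47.7 ± 3.25 CPM in WT. In HOM against WT it gave a log2 fold change of 0.08 (SE 0.0690). Set against HET it gave 0.18 (SE 0.0695, adjusted p = 0.439, edgeR), or 0.13 without HOM 3. Slco1a4, an organic anion carrier, averaged 57.2 ± 7.20 CPM in HOM, 53.2 ± 3.57 CPM in HET and 54.7 ± 7.80 CPM in WT. Bsg averaged 355 ± 16.9 CPM in HOM, 343 ± 12.4 CPM in HET and 344 ± 14.3 CPM in WT, with an interval of 0.985 to 1.08 fold in HOM against WT, the narrowest of the 18 endothelial genes. Its highest library was HOM 8, at 400.3 CPM. The other surface and secreted endothelial genes Ly6c1, Ly6a, Egfl7, Emcn, Itm2a and Pltp had log2 fold changes between 0.00 and 0.07 in HOM against WT. Abcb1a, Pltp, Ly6c1, Ly6a, Pecam1 and the pericyte gene Abcc9 had expected counts that were not whole in 13 to 22 of the 22 libraries. RSEM can share reads among genes of similar sequence or with overlapping exons, and the reason for each gene was not tested. Exons of Pltp overlap those of Ctsa over 495 bases, Abcb1a those of Gm42686 over 242 and Abcc9 those of 5330439B14Rik over 158. No overlap was found for Ly6c1, Ly6a or Pecam1. The values of all these genes carry that uncertainty.

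**Figure D2:**
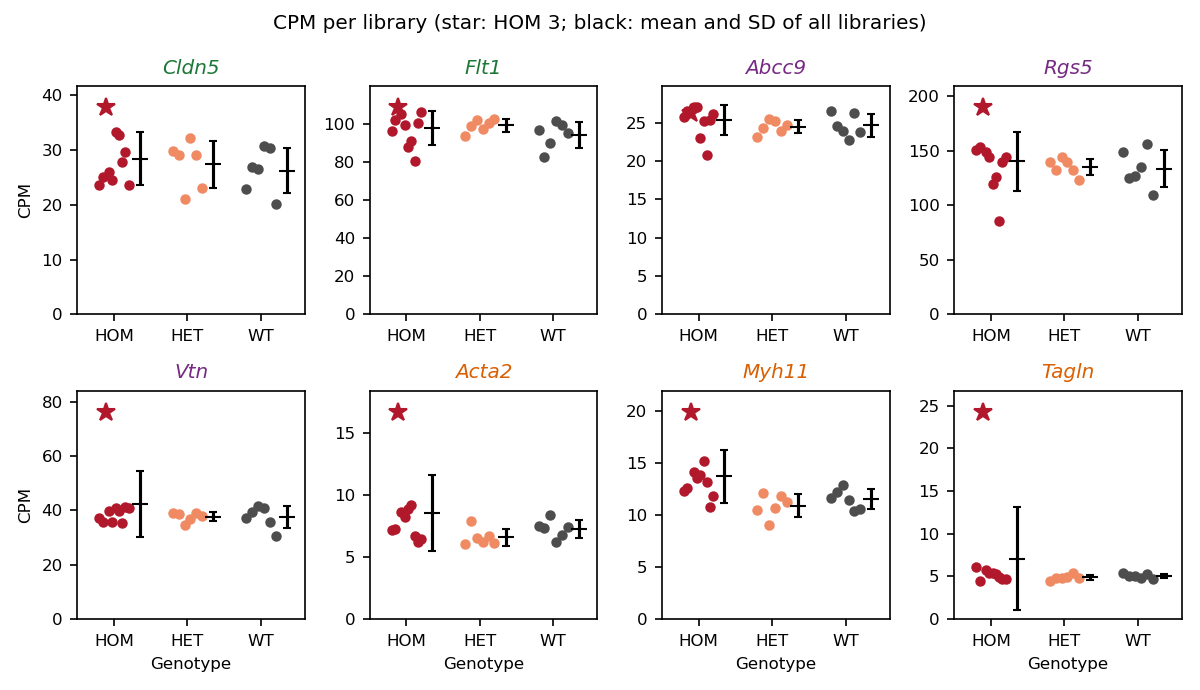
CPM per library (vertical axis, from 0) of 8 genes in HOM, HET and WT libraries; points are libraries, stars mark HOM 3, and black marks give the mean and SD of all libraries of the genotype. Genotype ranges overlap in every panel, and HOM 3 lies above the other 21 libraries for each gene shown except Abcc9.

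Pericyte genes showed 2 patterns with respect to HOM 3. Pdgfrb, the receptor through which PDGF-BB recruits pericytes, ran from 21 to 37.6 CPM in HOM (median 23.2), from 19.7 to 23.2 CPM in HET (median 22.2) and from 17.1 to 26.2 CPM in WT (median 23.4). Its log2 fold change in HOM against WT was 0.12 (SE 0.109, adjusted p = 0.831, edgeR), and 0.03 (SE 0.0762) without HOM 3. Vtn ran from 35.5 to 76.3 CPM in HOM (median 39.9), from 34.7 to 39.1 CPM in HET (median 38.3) and from 30.6 to 41.4 CPM in WT (median 38.3). Only HOM 3 lay above 41.4 CPM, and the log2 fold change of 0.17 (SE 0.130) was 0.04 (SE 0.0534) without it. Rgs5 averaged 140 ± 26.9 CPM in HOM, 135 ± 7.38 CPM in HET and 134 ± 17.0 CPM in WT. HOM held both its highest value, 190.1 CPM in HOM 3, and its lowest, 85.4 CPM in HOM 8.

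Kcnj8 and Abcc9 encode the pore Kir6.1 and the regulatory subunit SUR2 of the vascular potassium channel that closes with ATP, and they lie side by side on chromosome 6, at 142564837 to 142571614 and 142587862 to 142702315 on GRCm38, both on the minus strand. Kcnj8 averaged 4.44 ± 0.532 CPM in HOM, 4.32 ± 0.231 CPM in HET and 4.11 ± 0.293 CPM in WT, a log2 fold change of 0.11 in HOM against WT (SE 0.0779) both with HOM 3 and without it. Abcc9 averaged 25.3 ± 1.97 CPM in HOM, 24.5 ± 0.849 CPM in HET and 24.7 ± 1.49 CPM in WT, and its fold change in HOM against WT lay between 0.958 and 1.1. HOM 3 sat inside the range of the other HOM libraries for both genes. The mitochondrial genes Higd1b and Ndufa4l2 averaged 2.09 ± 0.370 and 1.98 ± 0.243 CPM in HOM, and 1.93 ± 0.161 and 1.87 ± 0.239 CPM in WT, and HOM 3 lay within the range of the other libraries for these as well.

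Contractile genes had the largest differences and the largest dependence on 1 library. Myh11, the smooth muscle myosin heavy chain (chromosome 16, 14194535 to 14291372, GRCm38), ran from 10.7 to 19.9 CPM in HOM (median 13.3), from 9.00 to 12.1 CPM in HET (median 10.9) and from 10.4 to 12.9 CPM in WT (median 11.5). Of the 10 HOM libraries 6 lay above the highest WT library and 4 lay within the WT range. The HOM to WT contrast gave a log2 fold change of 0.25 (SE 0.0961, adjusted p = 0.815, edgeR), or 0.17 (SE 0.0706, adjusted p = 0.704) without HOM 3. A fit that held the title prefix, the number that opens each library title, gave 0.18 (SE 0.0972, adjusted p = 0.916).

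Acta2, smooth muscle alpha actin, ran from 6.23 to 16.7 CPM in HOM (median 7.71), from 6.01 to 7.90 CPM in HET (median 6.36) and from 6.22 to 8.37 CPM in WT (median 7.41). Its log2 fold change in HOM against WT was 0.23 (SE 0.159, adjusted p = 0.819, edgeR), and 0.07 (SE 0.0880) without HOM 3. Tagln, the actin-binding protein SM22 alpha, ran from 4.52 to 24.3 CPM in HOM (median 5.33), from 4.49 to 5.44 CPM in HET (median 4.85) and from 4.74 to 5.37 CPM in WT (median 5.02). Apart from HOM 3, no library exceeded 6.06 CPM, and the log2 fold change of 0.49 (SE 0.316) was 0.04 (SE 0.0678) without it. Exons of Tagln overlap those of Pcsk7 on the other strand, and the strand setting of the counting is not given in the sources used here, so reads of both genes may be mixed.

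Myl9 averaged 10.6 ± 4.31 CPM in HOM, 8.68 ± 0.597 CPM in HET and 8.79 ± 0.977 CPM in WT, and its log2 fold change in HOM against WT was 0.27 with HOM 3 and 0.07 without it. Tpm2 averaged 9.01 ± 0.740 CPM in HOM, 8.05 ± 0.706 CPM in HET and 8.71 ± 0.813 CPM in WT, with a log2 fold change in HOM against WT of 0.05 (SE 0.0647). Des, the muscle intermediate filament desmin, gave 0.32 (SE 0.253) with HOM 3 and 0.02 (SE 0.143) without it. For Myl9 and Des, as for Acta2 and Tagln, most of the difference was thus carried by HOM 3.

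Mustn1, a small nuclear protein of muscle and skeletal tissue, ran from 0.359 to 2.04 CPM in HOM (median 0.856), from 0.453 to 0.831 CPM in HET (median 0.543) and from 0.226 to 0.702 CPM in WT (median 0.633). The log2 fold change in HOM against WT was 0.68 (SE 0.268, adjusted p = 0.815, edgeR) and 0.46 (SE 0.214, adjusted p = 0.765) without HOM 3. It was the contractile gene with the largest difference in both fits, at 524 counts over all 22 libraries. Cnn1, with 213 counts in all, gave 0.53 (SE 0.352) and 0.36 (SE 0.336) without HOM 3. Neither gene passed the adjusted threshold at this depth.

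The 3 classes differed in their median ratio in HOM 3, while the ratios of single genes overlapped between classes. Against the median of the other 9 HOM libraries, the 8 contractile genes were higher by a median ratio of 2.42, the 18 endothelial genes by 1.35 and the 7 pericyte genes by 1.11, where all tested genes had a median ratio of 1.00. All 8 contractile genes were higher in HOM 3 than in each of the other 21 libraries, as were 16 of 18 endothelial and 3 of 7 pericyte genes, against 17.1% of all tested genes. Within the contractile class the ratios ran from 1.23 (Tpm2) to 4.58 (Tagln, 24.3 CPM in HOM 3 and a median of 5.31 CPM in the other HOM libraries). Carmn, a smooth muscle RNA, had a ratio of 1.02.

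Within the endothelial class the highest ratios in HOM 3 were those of Tie1 at 1.65, Cdh5 at 1.63, Pecam1 at 1.60 and Itm2a at 1.56, followed by Cldn5 at 1.45. Slc2a1 at 1.19, Ly6c1 at 1.16, Flt1 at 1.1 and Bsg at 1.00 were at the bottom. Pericyte genes split between Vtn at 1.92, Pdgfrb at 1.65 and Rgs5 at 1.32, and Higd1b at 1.11, Abcc9 at 1.02, Kcnj8 at 0.957 and Ndufa4l2 at 0.876. Most Schwann, fibroblast, blood and skeletal muscle markers were higher in the same library, as given above, and their part in these ratios was not tested. With 1 library there is no replicate error for any of them.

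**Figure D3:**
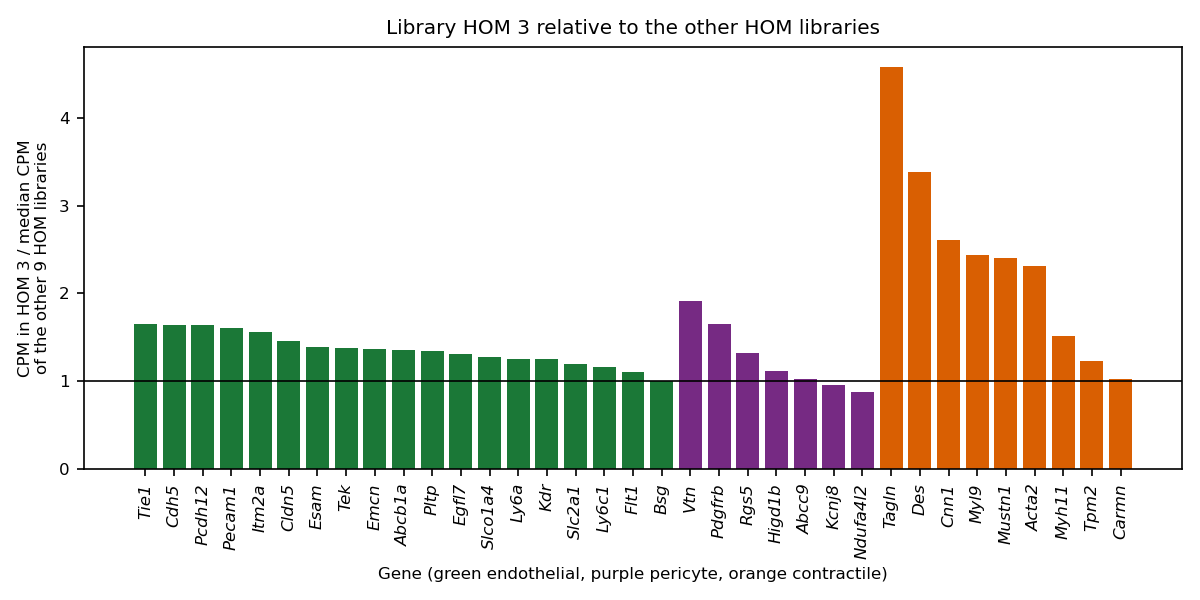
Ratio of the CPM in HOM 3 to the median CPM of the other 9 HOM libraries (vertical axis, from 0; line at 1) for the 35 genes, grouped by class and sorted within it. Contractile genes reach 4.58 (Tagln), endothelial genes lie between 1.00 (Bsg) and 1.65 (Tie1), and 4 of the 7 pericyte genes lie between 0.876 and 1.11.

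A score per library, the mean over a class of log2 CPM less its WT mean, described the spread between libraries. The contractile score averaged 0.26 ± 0.40 in HOM (SD, n = 10) and 0.14 ± 0.12 in the 9 HOM libraries without HOM 3, against 0.00 ± 0.10 in HET, and it ran from -0.18 to 0.24 in WT. The endothelial score averaged 0.06 ± 0.14 in HOM and 0.02 ± 0.06 without HOM 3, against 0.00 ± 0.05 in HET, with WT libraries between -0.13 and 0.07. The pericyte score averaged 0.09 ± 0.13 in HOM and 0.06 ± 0.08 without HOM 3, against 0.04 ± 0.07 in HET, with WT libraries between -0.17 and 0.10. WT 6 held the lowest endothelial and pericyte scores of all 22 libraries and the lowest CPM of all libraries for 10 of the 35 genes, among them Kdr and Cldn5, where it was lowest for 6.18% of all genes.

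Library titles begin with 39992, 40411 or 40412, numbers that the labels do not explain and that are spread unevenly over the genotypes: 5, 3 and 2 HOM libraries, 0, 1 and 5 HET libraries, and 1, 2 and 3 WT libraries. The median contractile difference of HOM less WT, on the log2 scale, was 0.40 within 39992 (8 of 8 genes higher, and 0.10 without HOM 3, against 1 WT library), 0.01 within 40411 (4 of 8 higher) and 0.05 within 40412 (5 of 8 higher). For Myh11 the same differences were 0.29 (0.17 without HOM 3), 0.16 and 0.06, positive in each. In a fit with that prefix, the median log2 fold change in HOM against WT was 0.17 for contractile genes (7 of 8 higher), 0.03 for endothelial genes (13 of 18) and 0.08 for pericyte genes (6 of 7). At an unadjusted p below 0.05 there was then 1 of 35 genes, Carmn, against 4.61% of all genes. Carmn was picked for a difference between HET and the same WT libraries.

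**Figure D4:**
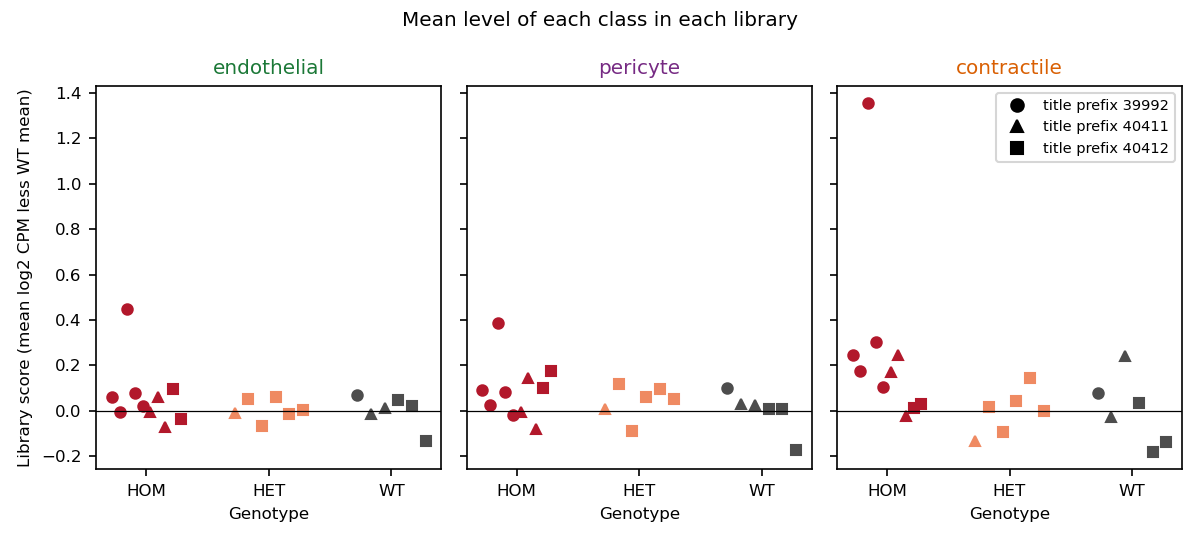
Library scores (vertical axis, mean log2 CPM of a class less the WT mean) of the endothelial, pericyte and contractile genes in HOM, HET and WT libraries, with marker shapes for the title prefix. HOM 3 lies alone at 1.35 for contractile and 0.45 for endothelial genes, and the remaining HOM libraries overlap HET and WT libraries in each class.

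Heterozygous cords were compared with wild type cords to ask whether 1 allele alters the same genes. The 3 classes were centred on no change, and the largest differences were in Pcdh12 and Carmn, each under 1 CPM. None of the 35 genes was called in HET against WT, and 0 of 16974 genes (0%) were called at all by edgeR, 0 by DESeq2 and 0 by limma. At an unadjusted p below 0.05 there were 2 of 35 (5.71%), Pcdh12 and Carmn, against 3.41% of all genes. An earlier report on these data had named these 2 for small p-values in this comparison. Their share was thus set by how they were picked and is not a result, and no other member reached that p. The same 2 were found without HOM 3, against 4.28% of all genes, and with the title prefix, against 2.68%. The endothelial median log2 fold change was 0.01 (9 of 18 higher), the pericyte median 0.02 (5 of 7) and the contractile median -0.03 (2 of 8), where all genes had a median of 0.00 with 51.9% higher. The intervals lay between 0.807 and 1.26 fold for endothelial, 0.814 and 1.31 fold for pericyte and 0.580 and 2.29 fold for contractile genes.

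Pcdh12, a protocadherin of endothelial junctions, had 94 counts over the 6 HET libraries and 38 over the 6 WT libraries. In CPM it ran from 0.194 to 0.630 in HET (median 0.552) and from 0.105 to 0.276 in WT (median 0.199). Of the 6 HET libraries 5 lay above every WT library, and HET 3 lay among them. In fits of only the genotypes compared, Pcdh12 against WT missed the filter on low counts. It passed in the fit of all 22 libraries, which holds the HET and the HOM libraries together. HET was the group where it was highest, so this separation is a description only. Between HET and WT the log2 fold change came to 1.35 (SE 0.341, unadjusted p = 0.000563, adjusted p = 1.00, edgeR), with a 95% interval of 1.57 to 4.14 fold. The gene was picked for a small p in this contrast, so the p-value and the interval are descriptions, not a test. Within prefix 40411 the difference was 1.67 (1 HET against 2 WT libraries) and within 40412 it was 0.95 (5 against 3). The mean of HOM lay between those of HET and WT, with 85 counts over 10 libraries and 0.259 ± 0.116 CPM. Because the gene was picked for a difference between HET and WT, this order is a description only.

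Carmn, the long noncoding RNA that hosts Mir143 and Mir145 in smooth muscle, had 30 counts over the 6 HET libraries and 83 over the 6 WT libraries. In CPM it ran from 0.0408 to 0.352 in HET (median 0.106) and from 0.194 to 0.582 in WT (median 0.431). In a fit of only HOM and HET, Carmn missed the filter on low counts. Its place in the fit of all 22 libraries thus came with the WT libraries, where it was highest. Between HET and WT the log2 fold change came to -1.39 (SE 0.361, unadjusted p = 0.000734, adjusted p = 1.00, edgeR), with a 95% interval of 0.228 to 0.638 fold, and the lowest adjusted p over all settings was 0.348, without HET 1. Carmn, too, was picked for a small p in this contrast, so these p-values and the interval are descriptions, not a test. Within prefix 40411 the difference was -0.06 (1 HET against 2 WT libraries) and within 40412 it was -1.45 (5 against 3). The 10 HOM libraries had 95 counts and 0.289 ± 0.112 CPM, and their log2 fold change against WT was -0.52 (SE 0.288, adjusted p = 0.815). The sign for Carmn in HOM against WT was opposite to that of the 8 contractile protein genes. Because Carmn was picked for a difference of HET from these same WT libraries, that sign is a description only. None of the contrasts passed the adjusted threshold for Pcdh12 or Carmn.

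Homozygous cords were last set against heterozygous cords, a comparison that shares its HOM libraries with HOM against WT. None of the 35 genes was called, where 18 of 16974 genes (0.106%) were called. At an unadjusted p below 0.05 there were 9 of 35 (25.7%), against 8.80% of all genes: Myh11, Acta2, Tpm2, Mustn1, Carmn, Abcb1a, Ly6a and Ly6c1 higher in HOM and Pcdh12 lower in HOM. Without HOM 3 there were 7, against 8.85% of all genes, and in the fit with the prefix 2 (Pcdh12 and Bsg), against 4.11%. Pcdh12 and Carmn were picked for a difference of the same HET libraries from WT, so their share of these counts is not a result. The contractile median was 0.34 (8 of 8 higher), 0.11 without HOM 3 (7 of 8) and 0.13 with the prefix (7 of 8). The endothelial median was 0.06 (15 of 18), 0.02 without HOM 3 and 0.02 with the prefix, and the pericyte median was 0.05 (6 of 7), 0.03 and 0.06.

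Myh11 was first among the 35 in HOM against HET, at a log2 fold change of 0.33 (SE 0.0969, adjusted p = 0.288, edgeR), 0.26 (SE 0.0713, adjusted p = 0.183) without HOM 3 and 0.19 (SE 0.112, adjusted p = 1.00) with the prefix. By DESeq2 its adjusted p was 0.112, the smallest of any member in any comparison and setting. Acta2 gave 0.38 (SE 0.161, adjusted p = 0.515) and 0.21 (SE 0.0892, adjusted p = 0.480) without HOM 3. Tpm2 gave 0.16 (SE 0.0653) and 0.13 (SE 0.0611) without HOM 3. These differences did not pass the adjusted threshold, and 5 of the 6 HET libraries carry the prefix 40412 while 5 of the 10 HOM libraries carry 39992.

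Further vascular genes were read from 8 lists, chosen with earlier results of these data known. Of 131 list genes tested, 1 was called in HOM against WT, where 16 of 16974 genes (0.0943%) were called. With lists so chosen, this count is not a result about vascular genes. The gene called was Mrvi1, which in smooth muscle couples cGMP kinase to the IP3 receptor and which other cells of the cord may also express. It fell to 7.95 ± 1.25 CPM in HOM (n = 10), against 10.9 ± 1.13 CPM in WT (n = 6), a log2 fold change of -0.45 (SE 0.0842, adjusted p = 0.0185, edgeR). Against HET, at 10.5 ± 0.807 CPM, the log2 fold change was -0.41 (adjusted p = 0.0516). Without HOM 3, which held 11.0 CPM, both contrasts passed (-0.51, adjusted p = 0.000113, and -0.47, adjusted p = 0.000518). The call against WT was lost without WT 1 (adjusted p = 0.0943), without WT 3 (0.0773), in a fit of these 2 genotypes alone (0.0790) and with limma on TPM (-0.24, adjusted p = 0.740). The other smooth muscle genes of its list were mixed, with 9 higher and 11 lower of 20 tested in HOM against WT and a median of -0.02, or 6 higher and 14 lower with a median of -0.04 without HOM 3.

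Barrier and other endothelial genes were higher in HOM than in WT for 26 of 33, with a median log2 fold change of 0.05, where 53.8% of all genes were higher. Without HOM 3 they were higher for 21 of 33 (median 0.02), and with the title prefix for 19 of 33 (0.02). The smallest p among them belonged to Slc7a5, the large neutral amino acid carrier of the barrier and also a stress-responsive gene of other cells, at 98.7 ± 11.4 CPM in HOM and 79.6 ± 10.2 CPM in WT (0.31, SE 0.0744, adjusted p = 0.210, edgeR; 0.28 without HOM 3). Sox18, an endothelial transcription factor, was next at 7.89 ± 1.26 CPM in HOM and 6.03 ± 0.885 CPM in WT (0.39, SE 0.119, adjusted p = 0.588; 0.35 without HOM 3). Neither passed the threshold. In the same comparison, arterial genes were higher for 8 of 11 (median 0.24), and for 9 of 11 without HOM 3 (0.08). Venous and activated genes were higher for 7 of 8 tested (0.16), and for 4 of 8 without HOM 3 (0.03). Basement membrane genes were higher for 10 of 11 (0.15), and for 8 of 11 without HOM 3 (0.02). Other pericyte genes were higher for 12 of 16 (0.10), and for 11 of 16 without HOM 3 (0.04). VEGF, angiopoietin and Notch genes were higher for 13 of 19 (0.07), and for 12 of 19 without HOM 3 (0.04). Wnt and Norrin pathway genes were higher for 8 of 13 with HOM 3 (0.02) and without it (0.01), and for 5 of 13 with the title prefix (-0.01).

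Several of these lists were also high in HOM 3. All 11 basement membrane genes were above the other 21 libraries there, with a median ratio of 1.88 to the other HOM libraries, and so were 8 of 11 arterial genes (2.01), while Wnt and Norrin genes had a ratio of 1.04, with 5 of 13 above. Angpt2, the TIE2 ligand made by activated endothelium, was at 8.48 CPM in HOM 3, against means of 0.718 ± 0.278 CPM in the other 9 HOM libraries and 0.495 ± 0.216 CPM in WT. Its log2 fold change in HOM against WT was 1.58 (SE 0.666, adjusted p = 0.815, edgeR), and 0.53 (SE 0.291, adjusted p = 0.789) without HOM 3. In HET against WT no list gene was called, and the counts were 15 higher and 18 lower for barrier genes, 4 and 12 for other pericyte genes, 6 and 14 for other smooth muscle genes and 7 and 4 for basement membrane genes. In HOM against HET, Cspg4, the pericyte and glial progenitor proteoglycan NG2, averaged 31.4 ± 2.32 CPM in HOM and 27.4 ± 1.45 CPM in HET (0.20, SE 0.0531, adjusted p = 0.182; 0.19 without HOM 3). Of the other pericyte genes 14 of 16 were higher in HOM than in HET (median 0.18), and 12 of 16 without HOM 3 (0.06).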

How the data were processed

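Each library has a deposited gene table of RSEM type, with columns for expected counts, TPM and FPKM, per the file headers. RSEM 1.2.12 and Bowtie2 2.2.0 are listed in the submitters' processing notes. Genome build, annotation and strand setting: not given in the sources used here. Of the deposited expected counts, 14.4% to 16.2% per library were not whole; they were rounded here. Deposited TPM values served for levels between genes and for an alternative test.

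Genotypes came from the labels, replicate numbers from the order of deposition. Of 38924 gene IDs, 37607 had a name; 16974 genes passed edgeR's filterByExpr. All 22 libraries were fitted with edgeR 4.0.16 (TMM, robust quasi-likelihood) in R 4.3.3, with Benjamini-Hochberg adjustment over all tested genes at 0.05. CPM used TMM-scaled totals. Intervals of 95% used the fit's SE and degrees of freedom. The fit was tested on simulated data. Alternatives were DESeq2 1.42.0, no filter, limma 3.58.1 on log2(TPM + 1), the title prefix as covariate, only the genotypes compared, and each library left out. Positions and overlaps come from GENCODE M21 (GRCm38), promoters from RefSeq (GRCm38.p6).

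The members and the gene lists (218 genes, 217 found) were chosen with earlier results of these data known. Members named under the sensitivity settings were the 4 of smallest p per comparison and Carmn and Pcdh12; in each further list the 2 genes of smallest p were named. Counting error and spread between libraries, not sequencing depth alone, set the precision.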

Additional observations from a re-analysis of the deposited data

Results flagged for a closer look

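Of 114 sets of values (each gene or class score in each genotype), 24 held an outlying library by Dixon's test. Its gap to the nearest other library was large for the range of its group. Chance alone gives about 5% of sets where sets are independent and values normally distributed. These sets share libraries, and the scores average the genes counted beside them, so that rate does not measure how unusual the 24 are. HOM 3 was the highest of 10 HOM libraries in 17 of the 24. Among endothelial genes these were Pecam1 (34.2 CPM, next highest 23.4), Cdh5 (27.8 CPM), Tek (20.7 CPM), Tie1 (20.2 CPM), Egfl7 (26.5 CPM), Itm2a (65.8 CPM) and Pltp (104.0 CPM). Among pericyte genes they were Pdgfrb (37.6 CPM) and Vtn (76.3 CPM). Among contractile genes they were Acta2 (16.7 CPM), Tagln (24.3 CPM, next highest 6.06), Myh11 (19.9 CPM), Myl9 (22.6 CPM, next highest 11.0), Mustn1 (2.04 CPM) and Des (2.92 CPM). The endothelial score (0.45) and the contractile score (1.35) of HOM 3 met the same rule.

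The other 7 were in different libraries. Bsg was highest in HOM 8 (400.3 CPM, next highest 360.0). Ly6a was lowest in HET 1 (9.88 CPM) and Pdgfrb was lowest in HET 3 (19.7 CPM). Acta2 (7.90 CPM) and Mustn1 (0.831 CPM) were both highest in HET 2. Des was highest in WT 3 (1.06 CPM). The pericyte score was lowest in WT 6 (-0.17).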

How the results depend on the processing

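No member was called in any comparison under any of the 27 alternatives, which are 5 other settings and 22 libraries left out in turn. The number of genes called among all tested, 16 in HOM against WT, was 28 with DESeq2 and 12 to 19 when single libraries were left out. In HOM against HET, where 18 were called, it was 76 with DESeq2, 11 with limma, 10 with the title prefix as covariate, and 10 (without HET 3) to 39 (without HOM 10) when single libraries were left out, with 11 without HOM 1 and 11 without HOM 4. The cause was not tested. In HET against WT it was 0 whichever library was left out. The remaining 397 values of class medians and counts of calls stayed within the spread between libraries or within 1.5 times the count, and 375 of 375 values of named members kept their direction and stayed on the same side of the threshold. In fits of only the genotypes compared, Pcdh12 against WT and Carmn between HOM and HET missed the filter and gave no value. Leaving out single libraries moved the contractile median between 0.07 and 0.35 in HOM against WT and between 0.11 and 0.37 in HOM against HET, the lowest of each being without HOM 3. The endothelial median in HOM against WT moved between 0.02 and 0.07 and the pericyte median between 0.04 and 0.13. Scaling by TPM moved the median of all genes by 0.04 in HOM against WT. No paired analysis was possible because the replicate numbers only number the libraries as deposited. Depth limits Cnn1, Pcdh12 and Carmn, with 213, 217 and 208 counts over all libraries.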
